A study of Mus musculus with 57 samples.

Results

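Junb, Jun, Klf6, Btg2 and Gadd45b are genes that many cells switch on within minutes to hours of a stress or growth signal and that act on transcription, growth arrest and stress signalling. They were chosen by name and are 5 of the 9780 targets in the deposited tables, and each was followed over all 10 groups of the study. RNA was counted in 57 square regions of formalin-fixed pancreas from C57BL/6 mice with the GeoMx Whole Transcriptome Atlas, a method that hybridises probes to the section, frees their barcodes by light within a selected region and sequences them. Mice of 8 to 9 weeks received hourly intraperitoneal caerulein over 8 hours on consecutive days, which causes pancreatitis (caerulein-induced pancreatitis, CIP), or were controls. Caerulein acts on cholecystokinin receptors and drives the acinar cells, which make digestive enzymes, beyond their normal secretion. The control had 7 regions. Of the treated groups, those at 3, 12, 24, 48 and 72 hours had 3, 6, 6, 5 and 4 regions, and those at 5, 7, 14 and 30 days had 6, 6, 7 and 7. All groups were wild type and differed only by treatment and time, and no source used here states the event from which time was counted. The sections came from 2 tissue arrays, called array 1 and array 2, and every group had regions on both. The labels tie 2 to 4 regions to a tissue sample but no region to an animal.

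The immediate early response is the first wave of transcription after a signal, made by genes whose promoters are already poised, so that no new protein is needed to start it. Jun and Junb are subunits of the dimeric transcription factor AP-1, the best known product of that wave, and kinases of the JNK and p38 families act on it. In the exocrine pancreas, secretagogue excess and the start of experimental pancreatitis are known triggers of such genes, while BTG and GADD45 proteins are known as brakes on growth and as stress sensors.

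The start-site regions of the 5 genes are shown because at least 3 of the 5 genes were called higher than control at each of 3, 12 and 24 hours. Each RefSeq window of 300 bases (GRCm38.p6) covers the bases before the start site and the first bases after it. The windows are chr8:84978699-84978998 on the minus strand for Junb, chr4:95052173-95052472 on the minus strand for Jun, chr13:5861239-5861538 on the plus strand for Klf6, chr1:134079106-134079405 on the minus strand for Btg2 and chr10:80929841-80930140 on the plus strand for Gadd45b. Capitals mark matches to a CRE-like motif (TGACNTCA, the site type of CREB and ATF proteins) or to the TATA box (TATAAA), and both strands were searched.
Junb: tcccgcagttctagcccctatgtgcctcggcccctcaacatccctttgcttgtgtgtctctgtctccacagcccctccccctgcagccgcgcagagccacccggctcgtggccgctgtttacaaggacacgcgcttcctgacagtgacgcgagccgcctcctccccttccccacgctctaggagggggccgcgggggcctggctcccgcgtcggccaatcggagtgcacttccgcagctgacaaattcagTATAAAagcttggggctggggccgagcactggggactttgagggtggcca
Jun: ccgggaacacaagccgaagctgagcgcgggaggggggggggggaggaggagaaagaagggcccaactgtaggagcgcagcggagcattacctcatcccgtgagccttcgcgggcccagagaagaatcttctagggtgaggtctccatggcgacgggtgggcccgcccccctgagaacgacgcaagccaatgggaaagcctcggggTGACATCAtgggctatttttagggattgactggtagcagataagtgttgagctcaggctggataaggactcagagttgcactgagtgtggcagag
Klf6: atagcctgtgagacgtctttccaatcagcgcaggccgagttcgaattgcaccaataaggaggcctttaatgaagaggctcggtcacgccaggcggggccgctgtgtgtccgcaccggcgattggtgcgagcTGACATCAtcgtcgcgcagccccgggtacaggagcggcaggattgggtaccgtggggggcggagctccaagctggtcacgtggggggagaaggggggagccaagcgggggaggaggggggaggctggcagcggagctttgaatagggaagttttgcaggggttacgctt
Btg2: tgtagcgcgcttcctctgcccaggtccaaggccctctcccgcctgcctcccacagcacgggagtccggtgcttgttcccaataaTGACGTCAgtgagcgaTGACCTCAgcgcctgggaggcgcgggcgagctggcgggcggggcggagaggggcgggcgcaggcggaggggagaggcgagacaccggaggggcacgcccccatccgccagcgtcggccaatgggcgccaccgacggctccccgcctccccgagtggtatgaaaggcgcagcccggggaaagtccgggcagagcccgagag
Gadd45b: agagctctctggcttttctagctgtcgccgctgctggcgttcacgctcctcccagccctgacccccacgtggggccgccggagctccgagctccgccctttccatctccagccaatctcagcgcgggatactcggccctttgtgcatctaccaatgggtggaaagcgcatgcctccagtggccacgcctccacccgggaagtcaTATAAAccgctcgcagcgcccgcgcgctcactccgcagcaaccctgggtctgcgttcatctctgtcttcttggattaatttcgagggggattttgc
A CRE-like match stood in the windows of Btg2 (TGACGTCA from base -166 and TGACCTCA from base -150, counted from the start site), Jun (TGACATCA from base -45) and Klf6 (TGACATCA from base -119), and in 8.834% of the 32851 RefSeq promoter windows of the same length. Junb (from base 1) and Gadd45b (from base -46) held a TATA box match, as did 13.616% of all windows. The AP-1 motif TGANTCA had no match in the 5 windows and had one in 7.808% of all windows. The letters CCAAT, the CCAAT box, stood in all 5 and in 37.408% of all windows. No match overlapped a match of another motif, and a match describes letters only.

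Each gene was read by 1 probe. The probes lay 322 to 365 bases from the start site in Junb, 1019 to 1053 in Jun, 232 to 275 in Klf6, 182 to 216 in Btg2 and 985 to 1020 in Gadd45b, measured along the genome. The counts of the 5 genes were close to the background of the assay. Background was taken as the deposited value of the negative probes, which match no mouse RNA, and a gene's count was divided by that value in the same region. In the 7 control regions this ratio ran from 1.038 to 1.426 for Junb, 1.111 to 1.352 for Jun, 1.215 to 1.374 for Klf6, 1.412 to 1.638 for Btg2 and 1.229 to 1.569 for Gadd45b. Only Btg2 (4 of 7 control regions) and Gadd45b (1 of 7) reached the deposited limit of quantitation in any control region. All 5 genes passed the filter for testing, a count over 2 times the negative probes in at least 3 of the 57 regions, and none did so through a control region. For Jun, the 6 regions over 2 times background were 3 at 12 hours and 3 at 24 hours, and for Junb they were 1 at 3 hours, 5 at 12 hours and 4 at 24 hours, so both passed only through groups in which they were high. In a fit of all 9780 targets without this filter the numbers of the 5 genes called higher at 3, 12 and 24 hours were the same. Fold changes include the background in both groups.

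**Figure D1:**
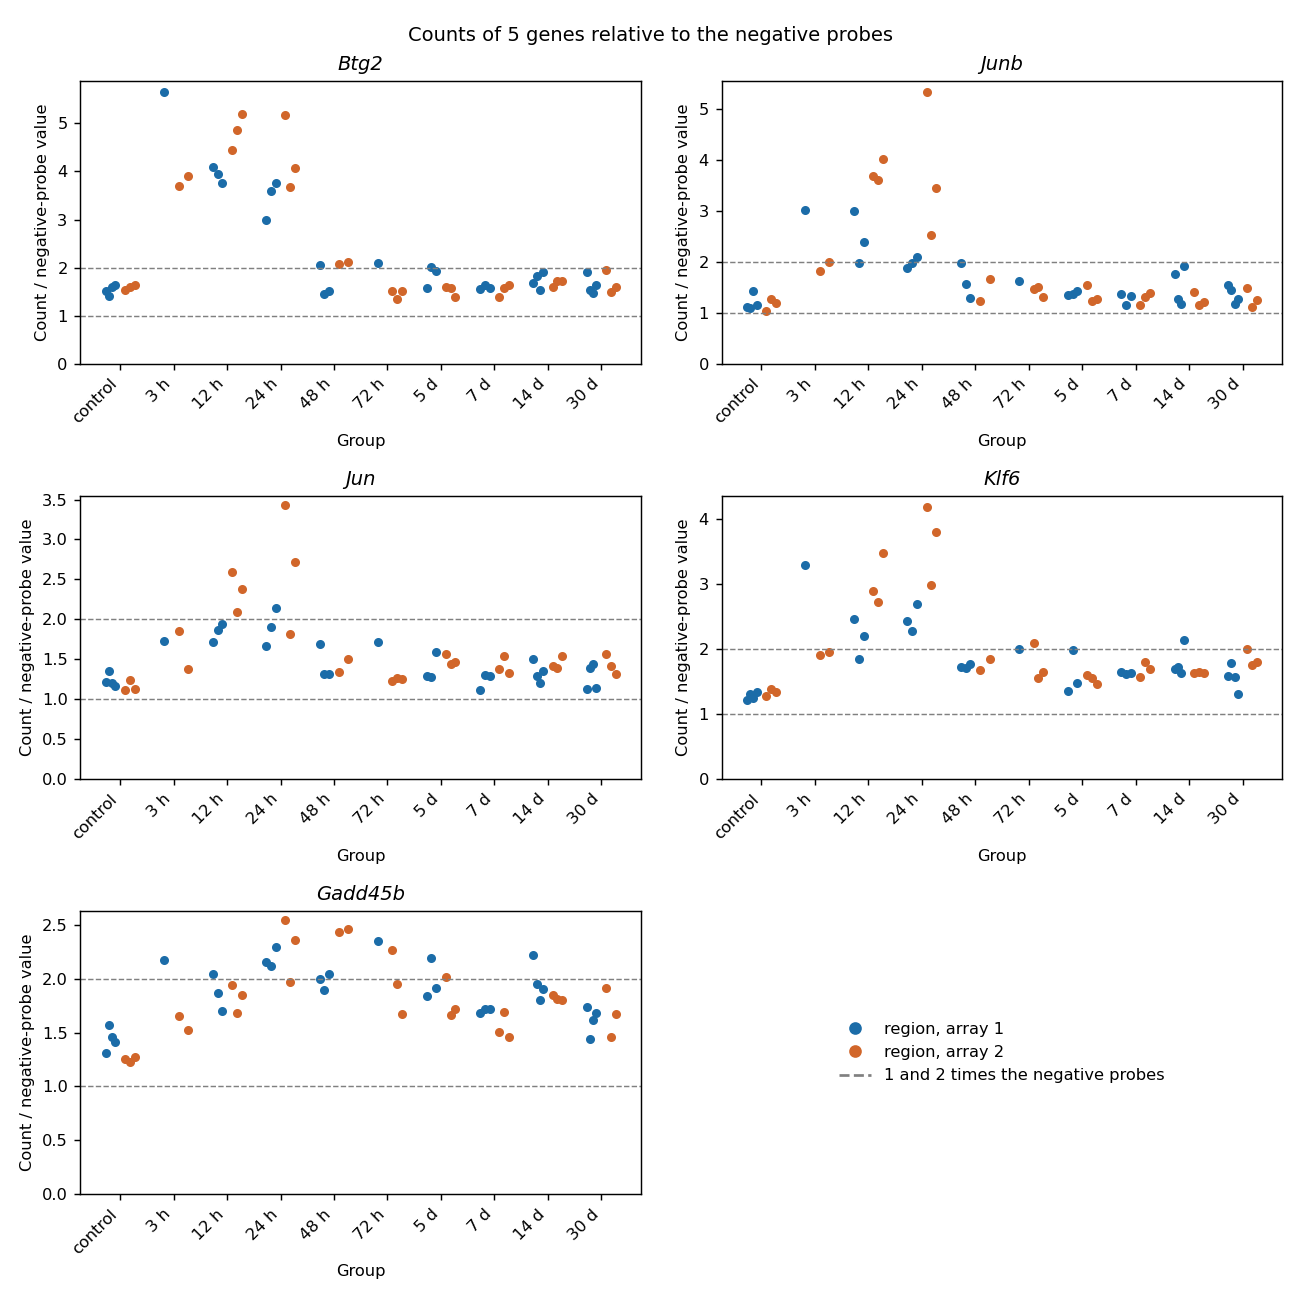
Count divided by the negative-probe value (vertical axis, a ratio) in every region of the 10 groups (horizontal axis), 1 panel per gene. Blue points are regions of array 1, orange points regions of array 2, and the dashed lines mark 1 and 2 times background. The highest ratio was 5.338 for Junb, 3.426 for Jun, 4.189 for Klf6, 5.651 for Btg2 and 2.55 for Gadd45b, all between 3 and 24 hours.

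Levels are given in CPM, counts scaled to library size with TMM factors over the 2688 targets tested. For tests, the counts of a group on 1 array were added, giving 2 sums per group, and edgeR's quasi-likelihood fit with terms for group and array was run over all 2688 targets. A gene was called where its adjusted p (Benjamini-Hochberg) was under 0.05. Target counts ran from 1036609 to 5035488 per region (median 2036021), and 480 to 2679 targets per region lay over 2 times background. The tissue carried its defining markers: the 25 acinar markers averaged 206 times background on array 1 and 211 on array 2 in the control. In these mixed regions, fewer cells of a type and less RNA per cell cannot be told apart.

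All 5 genes changed over the course, as did 42.1% of the targets tested. The adjusted p for any change was 2.31e-06 for Btg2, which ranked 24 among the 2688, 0.00151 for Junb, 0.00197 for Gadd45b, 0.0124 for Klf6 and 0.0153 for Jun. Compared with control, 3 of the 5 rose at 3 hours (background 7.63% of targets higher), 4 at 12 hours (21.8%) and 5 at 24 hours (21.8%). At 48 hours and at 72 hours 1 gene, Gadd45b, was higher (background 0.67% at both times). At the later times edgeR called 0 of the 5, with backgrounds of 0.26% (5 days), 0.0372% (7 days), 0% (14 days) and 0.0372% (30 days). At an unadjusted p under 0.05 the numbers of genes at those 4 times were 1, 1, 2 and 1. None of the 5 was called lower than control at any time. The median log2 difference of the 5 genes was 0.628 at 3 hours, 0.566 at 12 hours, 0.784 at 24 hours and 0.18 at 48 hours, beside medians over all tested targets of -0.0208, -0.0145, 0.00223 and -0.000682. All 9 comparisons share the control sums.

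**Figure D2:**
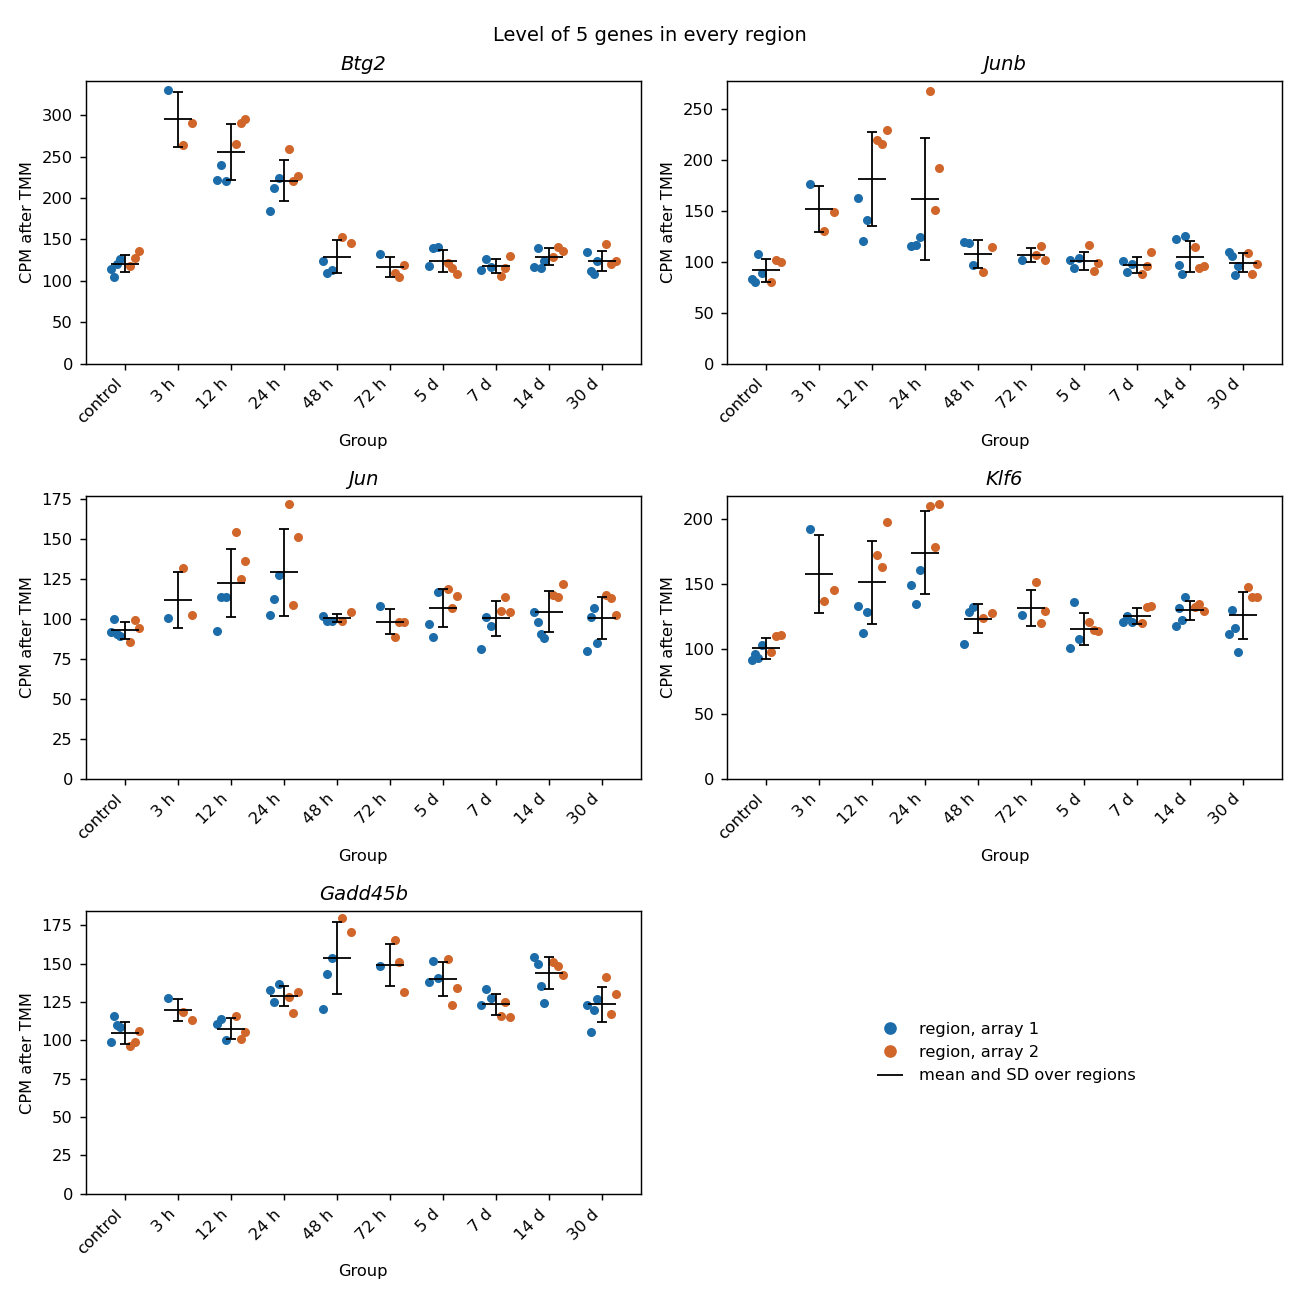
CPM after TMM scaling (vertical axis, from 0) in every region of the 10 groups (horizontal axis), 1 panel per gene. Blue and orange points are regions of array 1 and array 2, and the black bars give the mean and SD over regions. Btg2, Junb, Jun and Klf6 were highest between 3 and 24 hours, while the highest mean of Gadd45b, 153.5 CPM, was at 48 hours.

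Junb encodes a bZIP subunit of AP-1 that in many cells restrains the growth-promoting activity of Jun. Its 7 control regions ran from 79.75 to 107.2 CPM with a median of 89.43. At 3 hours it stood at 176.4 CPM in the array 1 region and at 130.7 and 148.8 CPM in the array 2 regions. At 12 hours array 1 held 162.4, 120.1 and 140.6 CPM and array 2 held 219.8, 216 and 229.9. Every one of these regions exceeded every control region, and the arrays were far apart at 12 hours. At 24 hours the 3 regions of array 1 lay at 115.9, 116.5 and 124.7 CPM, and those of array 2 at 268.2, 151.1 and 192.5. The split between arrays was wider still, although all 6 regions were above the control range. By 48 hours the 5 regions lay between 90.24 and 119.4 CPM and overlapped the control.

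Junb was 1.62-fold higher than control at 3 hours (log2 0.69 ± 0.209 SE, adjusted p = 0.0396), 1.96-fold at 12 hours (0.97 ± 0.186, adjusted p = 0.0011) and 1.78-fold at 24 hours (0.83 ± 0.187, adjusted p = 0.0029). Within arrays, the log2 difference at 24 hours was 0.43 on array 1 and 1.10 on array 2, and at 12 hours 0.66 and 1.19. Without the array 2 sum the 24-hour difference was 0.38 (adjusted p = 0.197). The 12-hour difference without its array 2 sum was 0.64 (adjusted p = 0.0582), and the 3-hour difference without its array 1 sum was 0.50 (adjusted p = 0.345). The 3-hour call was also lost without either control sum (adjusted p = 0.113 and 0.22). From 48 hours to 30 days the differences lay between 0.06 and 0.18 and none was called. In order of mean level came 12 hours (181.5 ± 46.47 CPM, SD, n = 6), 24 hours (161.5 ± 59.85, n = 6) and 3 hours (151.9 ± 23, n = 3). Each step between these neighbours was within the larger of their SDs. The step from 3 hours to the next group, 48 hours (107.9 ± 13.47, n = 5), exceeded both SDs. Below came 72 hours (106.6 ± 6.556, n = 4), 14 days (105.2 ± 15.13, n = 7), 5 days (100.8 ± 8.905, n = 6), 30 days (99.11 ± 9.318, n = 7), 7 days (96.99 ± 7.841, n = 6) and control (91.62 ± 11.27, n = 7), each within the SD of the next.

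Jun encodes the AP-1 subunit that JNK phosphorylates and after which that kinase is named. Its control regions ran from 85.34 to 99.77 CPM with a median of 91.51. At 3 hours the region of array 1 held 100.8 CPM and those of array 2 held 132 and 102.6. All 3 were above the control range, the lowest by about 1 CPM. The 6 regions at 12 hours ran from 92.48 to 154.6 CPM (median 119.5), and 5 of them exceeded every control region. At 24 hours the range was 102.7 to 172.1 CPM (median 120), and all 6 regions exceeded the control range. At 48 hours the 5 regions lay between 98.5 and 104.3 CPM and overlapped the control again.

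At 3 hours Jun was not called (log2 0.22 ± 0.119 SE, adjusted p = 0.252). It was 1.33-fold higher at 12 hours (0.41 ± 0.105, adjusted p = 0.00671) and 1.4-fold higher at 24 hours (0.49 ± 0.105, adjusted p = 0.0021). The array 2 difference exceeded that of array 1 at both times, 0.57 against 0.20 at 12 hours and 0.65 against 0.30 at 24 hours. Without the array 2 sum of the time group, neither call was kept (adjusted p = 0.173 at 12 hours and 0.103 at 24 hours), nor without the array 2 sum of the control (0.138 and 0.0728). Later differences lay between 0.05 and 0.18. By mean level the order was 24 hours (129.1 ± 27.33 CPM, SD, n = 6), 12 hours (122.6 ± 21.32, n = 6), 3 hours (111.8 ± 17.52, n = 3), 5 days (106.8 ± 12.05, n = 6), 14 days (104.5 ± 12.82, n = 7), 30 days (100.5 ± 13.39, n = 7), 48 hours (100.4 ± 2.562, n = 5), 7 days (100.2 ± 10.94, n = 6), 72 hours (98.28 ± 7.969, n = 4) and control (92.88 ± 5.277, n = 7). No step between neighbours in that order exceeded the larger of their SDs.

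Klf6 encodes a zinc finger transcription factor of the Krüppel-like family, known as an injury-induced gene and a tumour suppressor. Its control regions ran from 91.51 to 111.1 CPM with a median of 97.94. At 3 hours it stood at 192.3 CPM on array 1 and at 136.6 and 145.1 CPM on array 2. The 12-hour regions ran from 112.6 to 198.1 CPM (median 148.1) and the 24-hour regions from 134.6 to 211.7 CPM (median 169.7). All 15 regions of these times exceeded every control region. Later levels stayed near the upper edge of the control: the 4 regions at 72 hours, the 6 at 7 days and the 7 at 14 days also lay above every control region. The lowest of these were 120.1, 119.8 and 117.9 CPM.

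Klf6 was 1.55-fold higher than control at 3 hours (log2 0.63 ± 0.164 SE, adjusted p = 0.0182), 1.48-fold at 12 hours (0.57 ± 0.15, adjusted p = 0.00774) and 1.72-fold at 24 hours (0.78 ± 0.15, adjusted p = 9.32e-04). Without the single array 1 region the 3-hour difference was 0.37 (adjusted p = 0.277), and without the array 2 sum the 12-hour difference was 0.34 (adjusted p = 0.209). Leaving out a control sum ended the 3-hour call (adjusted p = 0.0828 and 0.118), and leaving out that of array 2 ended the 12-hour call (0.0669). At later times it was not called, with differences of 0.29 ± 0.154 and 0.33 ± 0.167 at 48 and 72 hours, of 0.18 ± 0.153 at 5 days, and of 0.29 ± 0.152 at 7 days, 0.34 ± 0.151 after 14 days and 0.32 ± 0.152 after 30 days. The adjusted p at those times ran from 0.424 at 48 hours to 1 at 30 days. In order of mean level came 24 hours (174.2 ± 31.97 CPM, SD, n = 6), 3 hours (158 ± 30, n = 3), 12 hours (151.3 ± 31.91, n = 6), 72 hours (131.8 ± 13.85, n = 4), 14 days (129.6 ± 7.467, n = 7), 30 days (126.1 ± 18.14, n = 7), 7 days (125.3 ± 6.145, n = 6), 48 hours (123.4 ± 11.27, n = 5) and 5 days (115.6 ± 12.24, n = 6), with each step within the SD of a neighbour. Control was last at 100.4 ± 7.876 CPM (n = 7), a step below 5 days that exceeded both SDs.

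Btg2 encodes a member of the BTG/TOB family, a target of p53 that slows the cell cycle and brings the CCR4-NOT complex to mRNA to shorten its poly(A) tail. Its control regions ran from 104.2 to 136.1 CPM with a median of 120. At 3 hours the level was 330.2 CPM in the array 1 region and 264.7 and 290.9 CPM in the array 2 regions. The 12-hour regions ran from 220.8 to 295.9 CPM (median 252.9) and the 24-hour regions from 184 to 259.6 CPM (median 222.4). The lowest of these 15 regions was far above the highest control region, so the groups did not overlap at any of the 3 times. At 48 hours array 1 held 124.1, 109.4 and 113.5 CPM and array 2 held 153.4 and 146.2. Both regions of array 2 were above the control range and the 3 of array 1 were within it.

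Of the 5 genes Btg2 had the highest difference at 3 hours on the TMM scale, whereas with background subtracted that of Junb was higher (2.22 against 2.03). It was 2.45-fold above control (log2 1.29 ± 0.15 SE, adjusted p = 2.33e-05), and then 2.08-fold at 12 hours (1.06 ± 0.144, adjusted p = 8.01e-05) and 1.82-fold at 24 hours (0.87 ± 0.144, adjusted p = 3.22e-04). The arrays gave 1.52 and 1.10 at 3 hours, 0.98 and 1.12 at 12 hours and 0.85 and 0.87 at 24 hours. These 3 calls held under each of the 18 alternatives run for each of them, sums left out included. At 48 hours the difference was 0.10 ± 0.148 (adjusted p = 0.805), and from 72 hours to 30 days it lay between -0.06 and 0.08. By mean level, 3 hours (295.2 ± 32.98 CPM, SD, n = 3), 12 hours (255.9 ± 33.47, n = 6) and 24 hours (221.2 ± 24.47, n = 6) each differed from the next by more than the larger SD, and 24 hours from 48 hours (129.3 ± 19.59, n = 5) likewise. The direct tests of 12 hours against 3 hours (-0.24 ± 0.145, adjusted p = 0.445) and of 24 against 12 hours (-0.19 ± 0.141, adjusted p = 0.863) did not call the decline. The rest ran from 14 days (129 ± 10.39, n = 7) through 5 days (124 ± 13.02, n = 6), 30 days (124 ± 12.43, n = 7), control (121 ± 10.38, n = 7) and 7 days (118.2 ± 8.681, n = 6) to 72 hours (116.5 ± 12.16, n = 4). Each step between neighbours there was within the larger of their SDs.

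Gadd45b encodes a small stress-response protein that binds kinases of the p38 and JNK cascades and is known as a target of NF-kB. Its control regions ran from 96.54 to 115.8 CPM with a median of 106.1. At 3 hours array 1 held 127.3 CPM and array 2 held 118.3 and 113.5, and at 12 hours the 6 regions ran from 100 to 115.6 CPM (median 108.1). Regions at both times overlapped the control. The 24-hour regions ran from 118.1 to 136.7 CPM (median 129.9). At 48 hours the level was 120.6, 143.3 and 153.4 CPM on array 1 and 179.9 and 170.6 CPM on array 2. At 72 hours it was 148.7 CPM on array 1 and 165.1, 151.1 and 131.5 CPM on array 2. Every region at 24, 48 and 72 hours was above every control region. This was also the case for the 6 regions at 5 days (123.1 to 152.8 CPM, median 139.3) and the 7 at 14 days (124.5 to 154.6 CPM, median 148.2), but not at 7 days (115.1 to 133.2 CPM) or 30 days (105.5 to 141.5 CPM).

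Gadd45b was 1.23-fold above control at 24 hours (log2 0.30 ± 0.1 SE, adjusted p = 0.0241), 1.5-fold at 48 hours (0.59 ± 0.1, adjusted p = 0.00385) and 1.41-fold at 72 hours (0.50 ± 0.109, adjusted p = 0.0286). At 3 and 12 hours the differences were 0.19 ± 0.112 (adjusted p = 0.304) and 0.04 ± 0.101 (adjusted p = 0.749). The differences at 5 days (0.41 ± 0.1, adjusted p = 0.117) and 14 days (0.45 ± 0.099, adjusted p = 0.214) were of similar size to that at 72 hours and were not called. With DESeq2 both were called (adjusted p = 0.0253 and 0.0144). The 72-hour call was lost without either control sum and without either 72-hour sum (adjusted p from 0.0763 to 0.37), and the 48-hour call without the array 2 sum of 48 hours (0.0808) or of control (0.0666). The 24-hour call was lost without either 24-hour sum (adjusted p = 0.0747 and 0.139) and without the array 2 sum of control (0.203). In order of mean level came 48 hours (153.5 ± 23.33 CPM, SD, n = 5), 72 hours (149.1 ± 13.78, n = 4), 14 days (143.7 ± 10.49, n = 7) and 5 days (140 ± 11.14, n = 6). Each step between these neighbours was within the larger of their SDs. A step above both SDs led to 24 hours (128.7 ± 6.538, n = 6). By steps within the larger SD of the neighbours followed 7 days (123.4 ± 6.959, n = 6), 30 days (123.4 ± 11.29, n = 7) and 3 hours (119.7 ± 6.989, n = 3). Another step above both SDs led to 12 hours (107.7 ± 6.623, n = 6), and control (105 ± 7.141, n = 7) came last, within the larger SD of 12 hours.

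**Figure D3:**
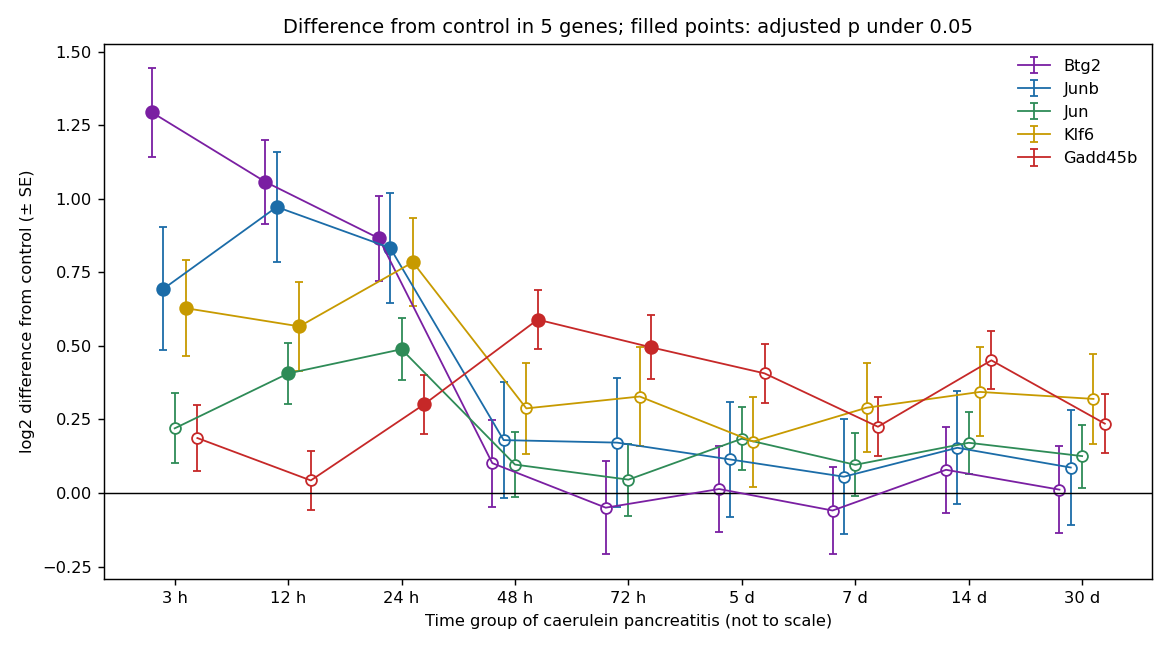
Log2 difference from control with its SE (vertical axis) at the 9 times (horizontal axis, not to scale) for the 5 genes, each in its own colour. Filled points have an adjusted p under 0.05. Btg2 starts highest at 1.29 and is near 0 from 48 hours on, and Gadd45b is filled from 24 to 72 hours.

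The scaling matters for genes so close to background. On the TMM scale the log2 difference of the negative probes from control was -0.256 at 3 hours, -0.414 at 12 hours and -0.429 at 24 hours. In ratio to the negative probes, Gadd45b averaged 2.241 at 24 hours, 2.168 at 48 hours and 2.063 at 72 hours, and its 6 regions at 12 hours (1.681 to 2.046) were all above the 7 control regions (1.229 to 1.569), whereas in CPM the groups overlapped. With the sums scaled on the negative probes, Gadd45b was called at 12 hours (0.46, adjusted p = 0.00788), a scaling under which the median of all targets was 0.401 higher than control. After each region's negative-probe value was subtracted from its counts, the log2 differences became larger and the calls against control at 3 to 72 hours stayed the same. For Junb it was then 2.22 at 3 hours, 2.53 at 12 hours and 2.26 at 24 hours. Btg2 reached 2.03, 1.61 and 1.32, Klf6 1.63, 1.40 and 1.70, and Jun 1.09, 1.51 and 1.63 at the same times. Gadd45b reached 0.87 at 24 hours, 1.54 at 48 hours and 1.31 at 72 hours.

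Groups in which every region exceeded every control region were counted over all targets too. At 3 hours this held for 4 of the 5 genes and for 12.3% of the 2688 targets, at 12 hours for 3 and 14.9%, and at 24 hours for all 5 and 14.1%. It held for 1 gene and 3.01% of targets at 48 hours and for 2 genes and 2.98% at 72 hours. Among the later groups it held for 1 gene and 1.23% (5 days), 1 gene and 1.53% (7 days), 2 genes and 0.595% (14 days) and none of the 5 and 0.484% (30 days).

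Between 24 and 48 hours the early genes came down. Btg2 fell by 0.76 on the log2 scale (SE 0.146, adjusted p = 0.00303), Junb by 0.65 (SE 0.19, adjusted p = 0.0258), Klf6 by 0.50 (SE 0.15, adjusted p = 0.0306) and Jun by 0.39 (SE 0.107, adjusted p = 0.02). These 4 of the 5 genes stood beside 11.7% of all targets that fell and 5.84% that rose at this step. On the TMM scale Gadd45b moved the other way and missed the threshold (0.29 ± 0.0994, adjusted p = 0.054). Of 18 alternatives 6 called it higher, DESeq2 among them (0.3165, adjusted p = 0.0255). Its direction depended on the scaling, with a change of sign on the negative probes only. Under the alternatives that left out no sum, the step ran from -0.0166 (on the negative probes) to 0.6744. The fall of Junb was -0.14 on array 1 and -1.04 on array 2, and none of the 4 falls was called once the array 2 sum at 24 hours was left out (adjusted p from 0.0691 for Btg2 to 0.645 for Junb) or the array 1 sum at 48 hours (0.0663 for Jun to 0.127 for Klf6). Without the array 2 sum at 48 hours that of Btg2 alone was called. None of the 5 was called at the other 7 steps between neighbouring times. The share of all targets called there was 0.781% from 3 to 12 hours, 1.08% from 12 to 24 hours, 0.0744% from 72 hours to 5 days, 0.0744% from 5 to 7 days and 0% at the 3 others. Whether the course of Gadd45b differs from that of the other 4 genes was not tested.

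Across the 20 sums, log2 levels of Btg2 and Junb had a Pearson correlation of 0.883, Junb and Klf6 of 0.868, Btg2 and Klf6 of 0.776, Junb and Jun of 0.765, Jun and Klf6 of 0.704 and Btg2 and Jun of 0.649. Gadd45b correlated with the others between -0.297 and 0.016. The sums share libraries, scaling and the loss of acinar RNA, so these values describe the course only. The targets most like Junb were Clic1 (0.981), Ppp1ca, Myl12a, Flna and Nfe2l2, and among those most like Btg2 were Pmm1 (0.974), S100a11, Pfn1 and Tmsb10. Klf6 was most like Itgav (0.928), Arf6, Hspa8, Emp1 and Csrp1, and Jun most like H2-D1 (0.885), Serpinh1, Myl12b, Laptm4a and Sparc. The best match of Gadd45b, Hjurp, reached 0.684, followed by Mgp, Coq2, Glul and Zbtb16.

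Related genes were taken from lists of each pathway. Of 47 listed immediate early genes 26 were in the table and 11 passed the filter, and of these 1 rose at 3 hours, 5 at 12 hours, 7 at 24 hours and none at 48 hours, with no fall against control, beside 7.63%, 21.8%, 21.8% and 0.67% of all targets. Their median log2 difference was 0.223 at 3 hours, 0.336 at 12 hours and 0.383 at 24 hours. Zfp36l1, whose protein marks AU-rich mRNA for decay, rose at 3 hours (0.88 ± 0.224 SE, adjusted p = 0.0157), 12 hours (1.30 ± 0.219, adjusted p = 4.42e-04) and 24 hours (1.05 ± 0.218, adjusted p = 0.00163). Its paralogue Zfp36l2 rose by 0.34 at 12 hours and 0.49 at 24 hours. Mcl1, a BCL2-family protein that blocks apoptosis, rose by 0.80 at 12 hours and 1.06 at 24 hours, and Nfkbiz, a nuclear regulator of NF-kB targets, by 0.49 and 0.38. Per1, a part of the circadian clock, rose at 24 hours (0.30 ± 0.111, adjusted p = 0.0388), a call lost without any of the 4 sums it compares. The 3-hour call of Zfp36l1 was lost without its array 1 sum (0.67, adjusted p = 0.214) or either control sum (0.0735 and 0.159). Without the array 2 sum of the time group, Zfp36l2 and Nfkbiz were called at neither time (adjusted p from 0.0836 to 0.26), Mcl1 was not called at 12 hours (0.0546), nor Zfp36l1 at 24 hours (0.0766). Without the array 2 sum of control, Zfp36l2 was not called at 12 hours (0.152), nor Nfkbiz at 12 and 24 hours (0.0601 and 0.143). Fosb, Fosl2 and Klf2 did not pass the filter, and their highest ratio to background in any region was 1.77, 1.85 and 2.14. Fos, Egr1 and Atf3 were not analysed here.

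Among the 19 AP-1 family members and partners other than Jun and Junb, 11 were in the table and 5 were tested, of which none was called at 3 hours, 2 rose at 12 hours and 2 at 24 hours (all targets 7.63%, 21.8% and 21.8%). Jund, the third Jun protein, is in this list and in the immediate early list. It rose by 0.83 ± 0.159 at 12 hours (adjusted p = 0.00117) and by 0.82 ± 0.16 at 24 hours (adjusted p = 0.00108), and it fell by 0.66 (SE 0.161, adjusted p = 0.0125) from 24 to 48 hours. Mafg, a small Maf partner of bZIP proteins, rose at 12 hours (0.32 ± 0.0892, adjusted p = 0.0102) and Atf5, a stress-related bZIP factor, at 24 hours (0.56 ± 0.132, adjusted p = 0.00393). Without the array 2 sum at 24 hours Atf5 was at 0.27 (adjusted p = 0.222) and the call of Jund there was lost (0.0535). Mafg was not called without the array 2 sum of control (0.141) or of 12 hours (0.0733). Only 2 of 16 further KLF genes were tested and neither was called at any time. Klf10, a TGF-beta-inducible member, differed from control by 0.25 ± 0.118 at 3 hours, 0.19 ± 0.105 at 12 hours and 0.07 ± 0.107 at 24 hours.

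Of 17 genes listed for the BTG/TOB family and the CCR4-NOT complex, 15 were in the table. The 3 tested were Tob1, Cnot8 and Pabpc1, of which Pabpc1 belongs to neither the family nor the complex. None was called at 3 hours, and 1 rose at 12 hours and 1 at 24 hours (all targets 7.63%, 21.8% and 21.8%). In the edgeR test for any change, Tob1 and Cnot8 were not called (adjusted p = 0.632 and 0.505). Pabpc1, the cytoplasmic poly(A)-binding protein, rose by 1.08 ± 0.196 at 12 hours (adjusted p = 7.32e-04) and 1.07 ± 0.196 at 24 hours (adjusted p = 6.63e-04). Tob1, the tested relative of Btg2, was not called, with differences of -0.30 ± 0.167 at 3 hours, -0.20 ± 0.151 at 12 hours and -0.15 ± 0.152 at 24 hours. Btg1 and Btg3 did not pass the filter (highest ratio to background 2.45 and 1.91).

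Of 31 GADD45 family and growth arrest genes, 23 were in the table and 10 were tested. Of these 3 rose at 3 hours, 6 at 12 hours and 4 at 24 hours, and none was called lower than control at these times. The shares of all targets called higher were 7.63%, 21.8% and 21.8%. Cdkn1a, the cyclin-dependent kinase inhibitor p21, rose by 0.92 ± 0.171 at 3 hours (adjusted p = 0.0016), 1.03 ± 0.162 at 12 hours (adjusted p = 2.54e-04) and 0.76 ± 0.163 at 24 hours (adjusted p = 0.00194). Bax, a pro-apoptotic p53 target, rose by 0.69, 0.48 and 0.59 at the same times. Nupr1, a stress gene first described in the rat pancreas during pancreatitis, rose by 1.82 ± 0.382 at 3 hours (adjusted p = 0.00398) and 1.10 ± 0.373 at 12 hours (adjusted p = 0.0265), and fell by 1.62 (SE 0.379, adjusted p = 0.0101) from 24 to 48 hours. Without the single array 1 region at 3 hours its difference there was 0.96 (adjusted p = 0.204), and without the array 2 control sum 1.63 (0.0728). The 12-hour call was lost without any of the 4 sums it compares (adjusted p from 0.0541 to 0.175). Mdm2, which targets p53 for degradation, rose at 12 hours (0.36 ± 0.0981, adjusted p = 0.00889). Ccng1 and Trp53inp1, both p53 targets, rose by 0.41 and 0.38 at 12 hours and by 0.39 and 0.63 at 24 hours. Ccng1 was called at neither time without the array 2 sum of control (0.25 and 0.22, adjusted p = 0.253 and 0.319) or of the time group (0.25 and 0.29, adjusted p = 0.278 and 0.246). At 12 hours Mdm2 was not called without those sums (0.24 and 0.25, adjusted p = 0.182 and 0.197), nor Trp53inp1 without the array 1 control sum (0.109) or the 12-hour sum of array 2 (0.0958). The 24-hour call of Cdkn1a was lost without its array 2 sum (0.0553). Gadd45g did not pass the filter (highest ratio 1.92). Of the 6 tested of 23 kinases of the JNK and p38 pathways none was called against control from 3 to 48 hours. Map3k5 rose from 24 to 48 hours (0.52 ± 0.101, adjusted p = 0.0032). It was near background, with a highest ratio of 2.41 and 6 regions over 2 times background. On the TMM scale the negative probes differed from control by -0.429 at 24 hours and -0.129 at 48 hours. The steps of Map3k5, Nupr1 and Jund from 24 to 48 hours were not recomputed under the alternatives.

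**Figure D4:**
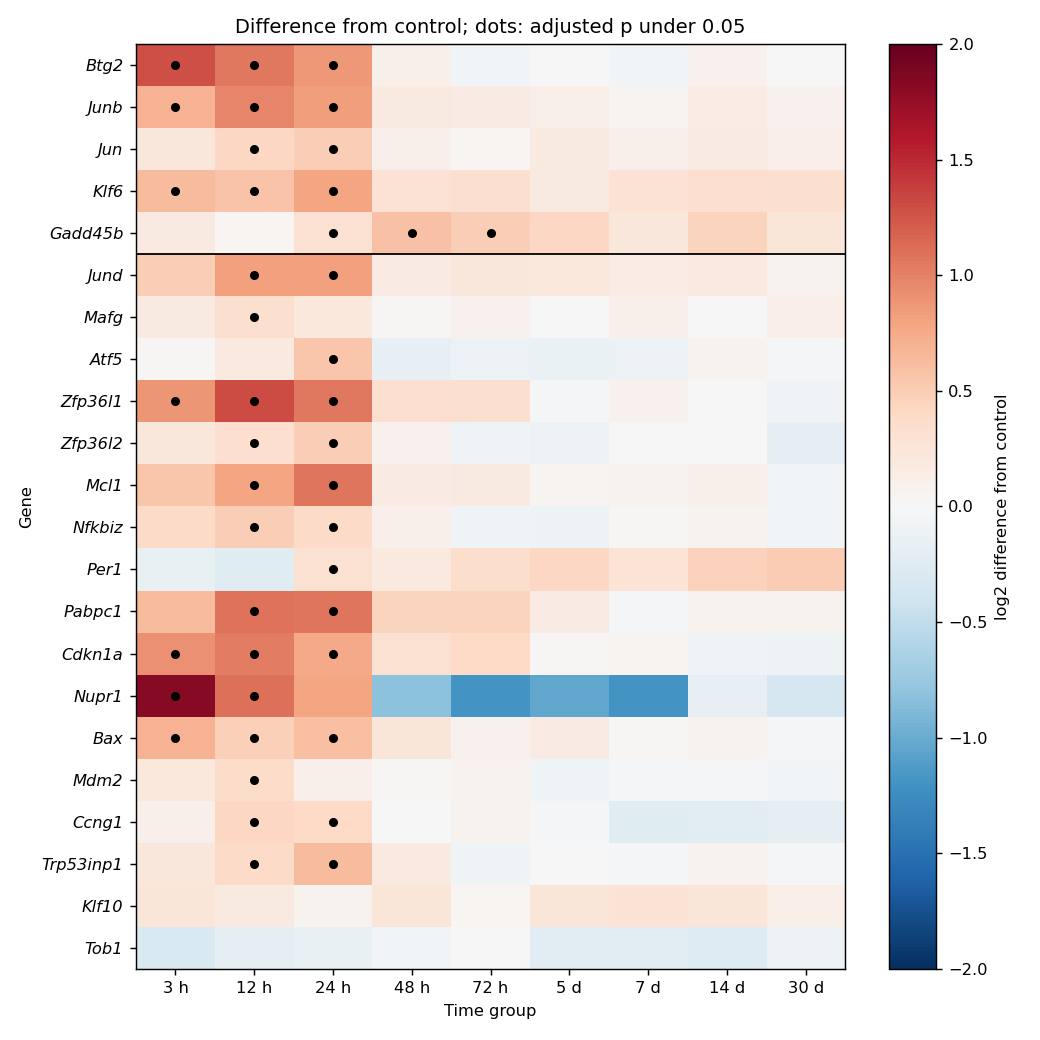
Colour gives the log2 difference from control (scale at the right, red higher, blue lower) for the 5 genes above the line and 17 genes of the pathway lists below it, at the 9 times on the horizontal axis. Black dots mark an adjusted p under 0.05. Most dots lie at 12 and 24 hours, and the dots of Gadd45b reach 72 hours.

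Cell type markers moved in the same groups. From 3 to 24 hours the acinar list fell from a mean of 206 and 211 times background in the control sums to 62.7 on array 1 and 26.3 on array 2 at 24 hours. Over the same groups the 12 ductal markers went from 1.41 and 1.43 in the control to 11.8 and 5.74 at 3 hours and to 2.9 and 5.04 at 24 hours. The ductal genes called at 3 hours were Krt8, Krt18, Krt19 and Spp1 (log2 4.395, 3.647, 1.837 and 2.875). Epcam, Muc1, Cd24a and Ambp were not called then, and Ambp was called lower at 12 hours (-0.36). Krt7, Sox9, Car2 and Tff1 did not pass the filter. The 14 fibroblast markers went from 1.26 and 1.22 to 3.93 and 7.71 at 24 hours, and the 16 macrophage markers from 1.18 and 1.17 to 1.89 and 2.79. At 12 and 24 hours Junb, Jun, Klf6 and Btg2, but not Gadd45b, had the higher CPM on array 2, as they also had in the control sums. Against the control of the same array, Btg2 rose by 0.85 on array 1 and 0.87 on array 2 at 24 hours. By that measure Junb, Jun and Klf6 rose more on array 2 at 12 and 24 hours. Array 2 at 12 and 24 hours had the lower acinar and the higher ductal, fibroblast and macrophage level (ductal 5.74 against 4.02 at 12 hours). At 3 hours Junb, Klf6, Btg2 and Gadd45b were higher on array 1, and Jun was higher on array 2. Array 1 then had the higher acinar (87.7 against 59.8), ductal (11.8 against 5.74), fibroblast (2.3 against 1.82) and macrophage (1.83 against 1.44) level. Of the tested markers, 4 of 8 ductal, 4 of 11 fibroblast and 1 of 10 macrophage genes were higher at 3 hours, and 6, 9 and 8 at 24 hours. The shares of all targets called higher were 7.63% and 21.8%. None of the 14 fibroblast or 16 macrophage markers exceeded 2 times background in a control region, and 1 of each list stayed below it in every region at 24 hours. Their part in the differences of the 5 genes was not tested. Islet markers averaged 15.9 times background in the array 1 sum at 12 hours, and leaving out its islet-rich region changed none of the counts of called genes. At 48 and 72 hours, when Gadd45b was highest in CPM, the acinar list stood at 63.8 and 79.9 and at 94.3 and 82 times background on arrays 1 and 2. Called lower than control were 9 and 8 of its 24 tested genes, beside 1% and 0.409% of all targets. The fibroblast list stood at 1.77 and 1.76 and at 2.13 and 1.33, and the macrophage list at 1.34 and 1.28 and at 1.44 and 1.2. The 5 of 12 listed neutrophil markers in the table averaged between 1.51 and 1.91 times background in every sum, and lymphocyte markers between 1.09 and 1.36. Of the 3 neutrophil genes tested, 2 were called lower than control on the TMM scale, beside 21% of all targets at 12 hours and 20.5% at 24 hours. Retnlg was lower at 12 hours (-0.31) and 24 hours (-0.34), as was Il1r2 (-0.447 and -0.395).

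**Figure D5:**
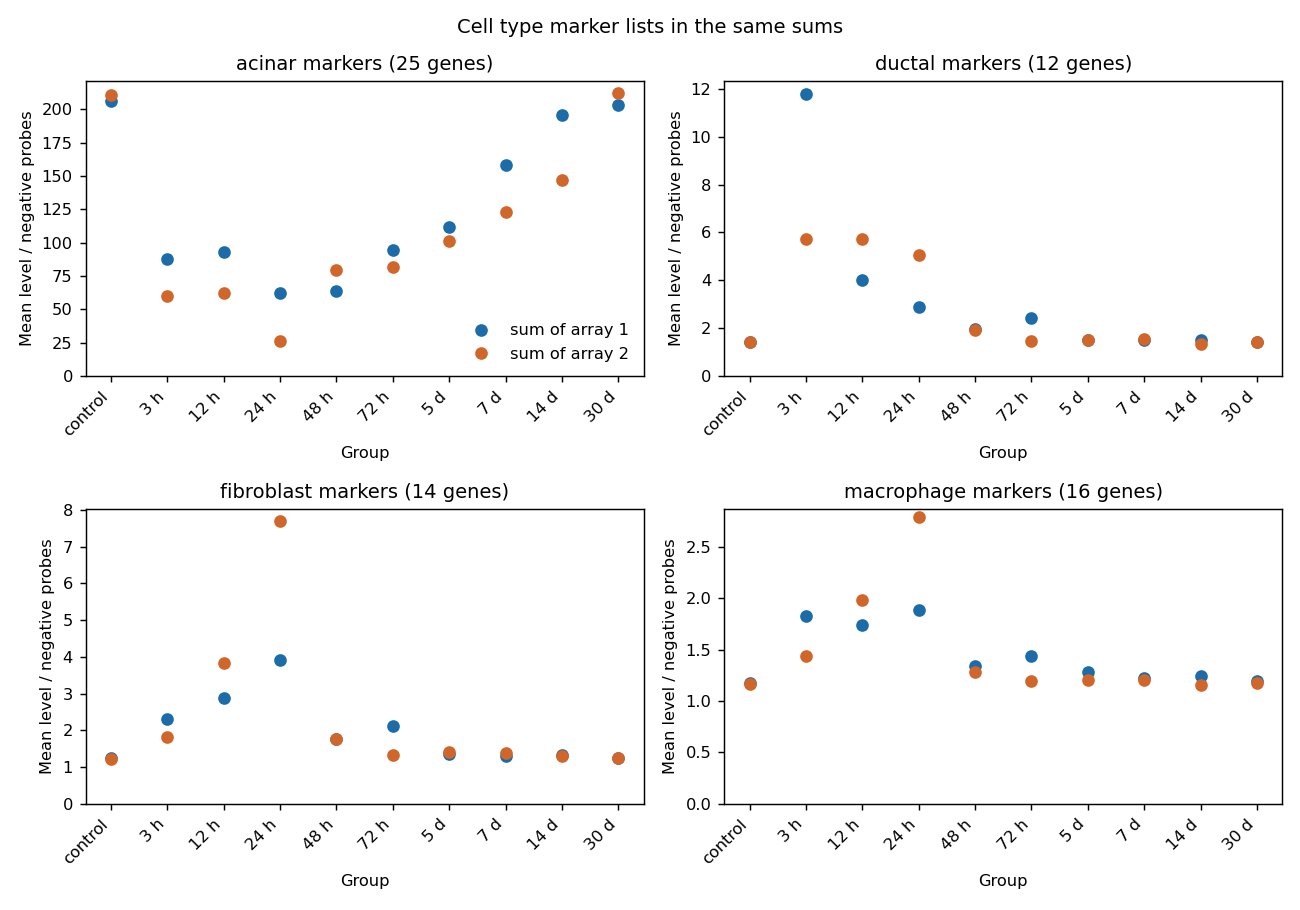
Mean level of 4 cell type marker lists divided by the negative-probe value (vertical axis, from 0) in the 2 sums of each of the 10 groups (horizontal axis). Blue points are array 1 and orange points array 2. The acinar list is lowest at 24 hours on array 2 (26.3) and the fibroblast list highest there (7.71).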

How the data were processed

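Reads became deduplicated probe counts in GeoMx NGS Pipeline 2.3.3.10, per the file headers. The authors deposited estimated counts of 9780 targets per region, which were rounded here. They also deposited these as a signal scaled so that each region's 75th percentile is 136.81. It was used for each gene's level on that scale only. The deposited region summary gives nuclei as counts, saturation in percent (94.6 to 96.3) and the scaling factor as a ratio. The roles of limma and mm10, named in the submitters' processing notes, and the authors' filters have no description in the sources used here.

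Regions of 1 group and array were added (20 sums). The 2688 targets that exceeded 2 times the negative probes in 3 or more regions entered edgeR 4.0.16 (R 4.3.3) after TMM scaling (quasi-likelihood fit on group and array, 9 residual degrees of freedom, biological coefficient of variation 0.111). The Benjamini-Hochberg threshold was 0.05. The SE follows from the log2 difference and its F. P-values rest on the spread between 2 sums per group, pooled over groups, which may be technical. Simulated sums with known changes were used to test the fit.

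The 5 genes, the lists and the tests were chosen with earlier results of these data known. The named genes are the 5, their 5 most alike targets (1 of which is not reported here), and for each list up to 6 genes called at any time with the smallest p for any change, plus close relatives. Alternatives were other scalings, filters, blocks, region-level fits, DESeq2 1.42.0, voom of limma 3.58.1 and sums left out.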

Additional observations from a re-analysis of the deposited data

Results flagged for a closer look

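Among 45 sets of regions (5 genes in the 9 groups of 4 to 7 regions), 1 region stood far from the others of its group by Dixon's test at the 95% level. Klf6 in replicate 1 of array 1 at 48 hours was at 104 CPM, below the other 4 regions at 123.9 to 132.4 CPM. Chance alone marks about 1 set in 20.

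For Btg2 the arrays moved opposite ways at 2 times at which it was not called. At 72 hours the region of array 1 was above the array's mean control level (log2 difference 0.19) and all 3 regions of array 2 were below theirs (-0.21). At 5 days the 3 regions of array 1 were above (0.19) and the 3 of array 2 below (-0.16). The difference between arrays was not tested, and 45 pairs of arrays were looked at.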

How the results depend on the processing

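Of 890 values of the 5 genes recomputed under an alternative, 778 kept direction and side of the threshold, 51 lost a call, 37 gained one and 24 changed sign, none of them called on either side. Of 535 values of pathway genes, 488 were as reported, 47 lost a call and 0 changed sign. The counts of genes called were 3, 4, 5, 1 and 1 at 3, 12, 24, 48 and 72 hours, 0 later, 4 from 24 to 48 hours and 5 for any change. With total counts, under which the median of all targets was 0.382, 0.553, 0.591 and 0.468 above control at 3, 12, 24 and 48 hours, they were 5 at 3 hours, 5 and 3 at 48 and 72 hours, 1 at 5 days and 2 from 24 to 48 hours. With background subtracted they were 1 at 5 days and 1 from 24 to 48 hours, with the filter in 10 regions 2 at that step, and without the array term 1 at that step and 3 for any change. The counts at that step take in both directions. With the filter in 10 regions they were the fall of Btg2 and a rise of Gadd45b (0.3666, adjusted p = 0.018). DESeq2 also called 4 there, but lost the fall of Junb (adjusted p = 0.0595) and gained the rise of Gadd45b (0.0255). Without a filter (9780 targets tested) and with the limit of quantitation as filter (8530), 0 were called at 72 hours. DESeq2 and the fit with time by array as a random block each called 1 at 5 days and 1 at 14 days. Regions as samples, whose p-values are too small because regions share tissue, gave 2 at 48 hours, 1 at 5 days, 2 at 7, 14 and 30 days, and 1 from 12 to 24 hours. With the replicate block added (a paired fit), they gave 2 at 48 and at 72 hours, 1, 1, 2 and 1 at 5, 7, 14 and 30 days, and 1 from 12 to 24 hours. The numbers were not taken to pair regions: over 223 same-numbered pairs the correlation of deviations from group means ran from -0.447 to 0.67 (median 0.196), and 13 of the 57 regions correlated best with their own number. Smaller moves were 5 at 12 hours with total counts and on the negative probes, 2 and 3 at 3 and 12 hours without the array term, and 2, 3 and 4 at 3, 12 and 24 hours with the filter in 10 regions, which Jun did not pass and under which 4 changed over the course. With background subtracted 4 changed over the course. From 24 to 48 hours 3 were called with the random block, and 5 with regions as samples, with and without the replicate block, and with library sizes over all targets, an alternative chosen after seeing the data. Each count of 5 includes the rise of Gadd45b. Leaving out 1 sum gave 1 to 3 at 3 hours, 1 to 4 at 12 hours, 2 to 5 at 24 hours, 0 to 1 at 48 hours, 0 at 72 hours, 0 to 4 from 24 to 48 hours and 3 to 5 for any change. The cause of these shifts was not tested.

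The sign changes, none of them in a called value, were as follows. For Btg2 at 72 hours the difference was 0.3858 with total counts, 0.00301 with 75th percentile scaling, 0.1132 on the negative probes and 0.02769 with the replicate block, and -0.1763 to 0.1556 with 1 sum left out. For Jun at 72 hours it was -0.001026 with regions as samples, -0.05711 with the replicate block, -0.009425 with the random block and -0.06604 to 0.3164 with 1 sum left out. Gadd45b from 24 to 48 hours was -0.0166 on the negative probes. Gadd45b at 12 hours was -0.0122 with the filter in 10 regions and -0.01878 to 0.09709 with 1 sum left out. Btg2 at 7 days was 0.1975 with total counts. With 1 sum left out, Btg2 ranged from -0.08794 to 0.2738 (48 hours), -0.1305 to 0.1502 (5 days), -0.1132 to 0.0009114 (7 days) and -0.04254 to 0.08023 (30 days). Junb ranged from -0.005531 to 0.1252 (7 days) and -0.01586 to 0.1797 (30 days), and Jun from -0.002311 to 0.1919 (7 days). Over all targets, 306, 1152, 1138 and 45 were called at 3, 12, 24 and 48 hours, against 1313, 2004, 2087 and 2021 with total counts. DESeq2 called 108 at 48 hours and regions as samples 488. Without the array term 704 and 652 were called at 12 and 24 hours.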
